A study of Sus scrofa with 8 samples.

Results

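The genes described here are the swine leukocyte antigen genes that present peptides to T cells, together with their closest partner chains, as measured in boar testis. A probe was taken as a member when the transcript accession it carries is that of SLA-1, SLA-2, SLA-3, SLA-DRA, SLA-DRB1, SLA-DQA1, SLA-DQB1, SLA-DMA, B2M or CD74 in the pig RefSeq gene table, and the study's own list of named probes added none. By this rule 8 of the 10 genes had a probe, out of 2228 genes with a named probe on the array, and they were measured by 20 of its 43603 probes. Class I was represented by 3 probes, of which 1 was for SLA-2 and 2 were for SLA-3. Class II was represented by 17 probes, with 4 for SLA-DRA, 5 for SLA-DRB1, 3 for SLA-DQA1, 1 for SLA-DQB1, 2 for SLA-DMA and 2 for CD74. SLA-1 and B2M had no probe under the rule and are not described.

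Testis RNA of 8 Large White boars was hybridized to one-colour Agilent porcine arrays, 1 boar per array, to compare 4 boars on a supplemented diet with 4 boars on a control diet. All 8 boars ate the same standard feed, and from the first to the tenth month of age the supplemented group received it with extra methionine, choline, betaine, folate and vitamins B6 and B12, which are methyl donors or cofactors of methyl group metabolism. Boars are named here by the ends of their labels: m_9597, m_9599, m_9499 and m_9527 on the supplemented diet, and m_9598, m_9600, m_9502 and m_9528 on the control diet. Boars m_9597, m_9598, m_9599 and m_9600 were full brothers and shared a slide, with 2 on each diet, and the other 4 boars, from other litters, shared the second slide, so that litter and slide cannot be told apart. Supplemented samples lay on places 1 and 3 of each slide and control samples on places 2 and 4, so that diet and place on the slide cannot be told apart either.

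Class I molecules consist of a heavy chain, encoded in the pig by SLA-1, SLA-2 and SLA-3, bound to beta-2-microglobulin (B2M). They are made by nearly all nucleated cells and show peptides cut by the proteasome, and carried into the endoplasmic reticulum by the TAP transporter, to CD8+ T cells. Class II molecules pair an alpha with a beta chain (DRA with DRB1, DQA1 with DQB1) and are made mainly by professional antigen-presenting cells such as macrophages, dendritic cells and B cells. The invariant chain CD74 holds the class II groove until the molecule reaches the endosome, where DM, of which SLA-DMA encodes the alpha chain, exchanges the remaining fragment for a peptide that is shown to CD4+ T cells. In the testis, class II is known from the macrophages and dendritic cells of the interstitium between the tubules, while most meiotic and later germ cells carry little class I, and the organ is regarded as immune-privileged.

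The median spot signal of an array lay between 108 and 192.5 intensity units, or 4.91 to 7.40 times the local background, and 76.3% to 86.5% of spots were well above background with none saturated. Tests covered the 36982 probes detected in 2 or more of the 4 boars of either diet, and levels are given as log2 of the quantile-normalized signal. The tissue label was borne out by the sperm genes PRM1 (18.4 to 18.8 over the 8 boars), PRM2 (18.1 to 18.6) and ACR (16.82 to 17.03) and by the Leydig cell hormone INSL3 (18.5 to 18.7). The log2 signal also depends on a probe's sequence, as the 5 SLA-DRB1 probes, all assigned to the same transcript, had means over the boars from 9.18 to 11.94. Levels were therefore compared between boars for a given probe and not between probes or genes. Since whole testis was used, fewer cells of a type and less RNA per cell cannot be told apart.

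The transcripts of both classes were detected in every boar, and no difference between the diets passed the test. Each of the 20 probes was called well above background in each of the 8 boars. No probe passed an unadjusted P of 0.05 for diet (limma), against 1.86% of all present probes, and adjusted p-values of the members ranged from 0.842 to 0.988. In all 20 probes the boars of the 2 diets overlapped, where the diets did not overlap in 1.13% of all present probes. What stood apart was a single boar: control boar m_9600 had the highest signal of the 8 in 17 of 17 class II probes, against 9.56% of all present probes, and in 2 of 3 class I probes.

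SLA-DRA and SLA-DRB1 encode the alpha and beta chains of the DR molecule. The brightest SLA-DRA probe (A_72_P176171) read 12.02, 11.63, 12.21 and 11.85 in supplemented boars m_9597, m_9599, m_9499 and m_9527. In control boars m_9598, m_9600, m_9502 and m_9528 it read 10.96, 13.15, 11.50 and 11.00. The supplemented boars thus lay close together, and inside the range of the controls, whose other 3 boars were all below them. Means were 11.93 ± 0.25 in supplemented boars and 11.65 ± 1.03 in control boars (SD, n = 4 each), a difference of 0.28 on the log2 scale. Its standard error was 0.44 and its adjusted p 0.877 by limma. The other 3 SLA-DRA probes had boar m_9600 at the top as well, and over the 4 probes the lowest and the highest boar differed 4.06- to 4.57-fold.

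The brightest SLA-DRB1 probe (A_72_P379003) read 12.08, 11.89, 12.35 and 12.19 in supplemented boars m_9597, m_9599, m_9499 and m_9527. In control boars m_9598, m_9600, m_9502 and m_9528 it read 10.80, 13.07, 11.83 and 11.28. The control boars stood in the same order as for SLA-DRA, from boar m_9600 at the top to boar m_9598 at the bottom. The diet difference was 0.38 on the log2 scale, with a standard error of 0.41 and an adjusted p of 0.844 by limma. Boar m_9598 was lowest of the 8 in all 5 SLA-DRB1 probes and in 3 of 4 SLA-DRA probes.

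SLA-DQA1 and SLA-DQB1 encode the chains of the DQ molecule. The brightest SLA-DQA1 probe (A_72_P244477) read 11.73, 11.39, 11.69 and 11.16 in supplemented boars m_9597, m_9599, m_9499 and m_9527. In control boars m_9598, m_9600, m_9502 and m_9528 it read 10.91, 12.77, 11.11 and 11.04. Apart from boar m_9600 the control boars lay close together and below every supplemented boar in this probe. Its diet means were 11.49 ± 0.27 and 11.46 ± 0.88 (SD, n = 4 each), so that they were 0.04 apart on the log2 scale. In the other SLA-DQA1 probes, A_72_P227742 and A_72_P233002, the diets overlapped also without boar m_9600. Control boar m_9528 read 8.97 and 8.56 there, above supplemented boar m_9527 at 8.62 and 7.66. The diet differences of these probes were -0.10 and -0.12.

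SLA-DQB1 had 1 probe (A_72_P039061), which read 13.25, 12.81, 13.33 and 12.07 in supplemented boars m_9597, m_9599, m_9499 and m_9527. In control boars m_9598, m_9600, m_9502 and m_9528 it read 11.57, 13.96, 12.58 and 11.66. This was the class II probe with the widest spread, 5.26-fold from boar m_9598 to boar m_9600, and with the widest interval for diet. Its diet difference was 0.42 on the log2 scale, with a 95% interval from -0.72 to 1.57, which is from 0.606- to 2.97-fold. The DQ genes thus had the same boar on top as the DR genes, and supplemented boar m_9527 was below control boar m_9502 for SLA-DQB1.

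The loading chain SLA-DMA and the invariant chain CD74 had narrower ranges over the boars than DR and DQ. The brightest SLA-DMA probe (A_72_P025111) read 10.35, 10.15, 10.67 and 10.65 in supplemented boars m_9597, m_9599, m_9499 and m_9527, and 10.09, 11.16, 10.36 and 10.32 in control boars m_9598, m_9600, m_9502 and m_9528. The brightest CD74 probe (A_72_P395573) read 8.12, 7.84, 8.30 and 8.25 in the same supplemented boars, and 7.81, 8.47, 8.25 and 8.03 in the same control boars. In both of these probes boar m_9600 was again highest and boar m_9598 lowest, over a 2.11-fold range for SLA-DMA and a 1.59-fold range for CD74. The second SLA-DMA probe (A_72_P427349) was lowest in boar m_9527 over a 2.86-fold range, and the second CD74 probe (A_72_P223292) was lowest in boar m_9502 over a 2.07-fold range. The diet differences of the brightest SLA-DMA and CD74 probes were -0.03 and -0.01 on the log2 scale. Those of the second SLA-DMA and CD74 probes were -0.18 and 0.14. CD74 probe A_72_P223292 had its 4 supplemented boars close together at 7.55 ± 0.11 (SD), and boar m_9600 at 8.16.

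**Figure D1:**
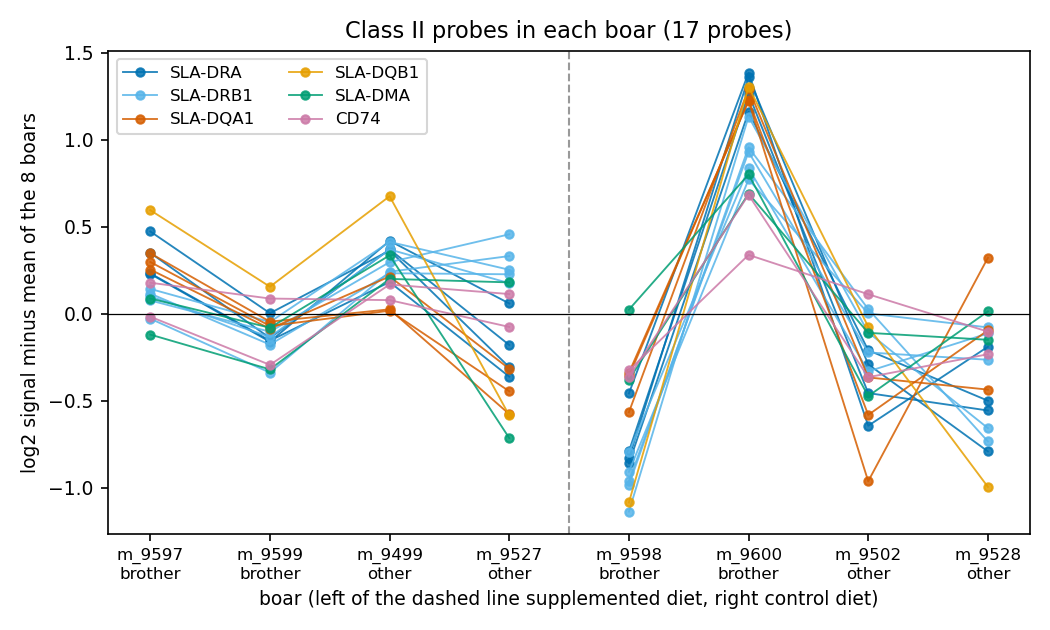
Log2 signal of each of the 17 class II probes in each boar, minus that probe's mean over the 8 boars. Points are probes coloured by gene, lines join the boars of a diet, and the x axis names the boar and whether it was 1 of the 4 brothers; control boar m_9600 is highest in all 17 probes and boar m_9598 lowest in 12.

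The 17 class II probes thus shared their highest boar. The median of the centred log2 signal over the 17 probes was 1.14 in boar m_9600 and -0.79 in its brother on the same diet, boar m_9598. It lay between -0.29 and 0.24 in the other 6 boars. Boar m_9600 exceeded the mean of the other 3 control boars 1.36- to 4.07-fold, with a median of 2.93-fold, and exceeded boar m_9598 1.59- to 5.26-fold. Boar m_9598 was lowest in 12 of 17 class II probes, against 9.06% of all present probes. Probes of the same gene share a transcript and all 17 share the 8 arrays, so these counts are not independent measurements. With the scanner's processed signal, scaled to the 75th percentile, boar m_9600 was highest in 17 of 17 and boar m_9598 lowest in 13 of 17, and without any normalization boar m_9600 was highest in 16 of 17 and boar m_9598 lowest in 2 of 17. The array of boar m_9598 had the brightest median signal of the 8 before normalization. Its part in this lower count was not tested.

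The class I heavy chain genes did not share this order in full. The SLA-2 probe (A_72_P299534) read 10.68, 10.17, 10.87 and 10.28 in supplemented boars m_9597, m_9599, m_9499 and m_9527, and 10.45, 10.98, 9.92 and 10.57 in control boars m_9598, m_9600, m_9502 and m_9528. Boar m_9600 was highest here too, by only 0.11 over boar m_9499, and boar m_9502 was lowest. SLA-2 means were 10.50 ± 0.33 in supplemented boars and 10.48 ± 0.44 in control boars (SD, n = 4 each). The difference of 0.02 on the log2 scale had a 95% interval from 0.69- to 1.49-fold.

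SLA-3 was read by a pair of probes of the same transcript that did not follow each other. Probe A_72_P270324 read 11.09, 10.61, 11.01 and 10.48 in supplemented boars m_9597, m_9599, m_9499 and m_9527, and 10.66, 11.41, 10.29 and 10.63 in control boars m_9598, m_9600, m_9502 and m_9528. Its order resembled that of SLA-2, with boar m_9600 highest and boar m_9502 lowest. Probe A_72_P114481 read 9.30, 8.97, 11.93 and 12.25 in the same supplemented boars, and 11.23, 9.79, 10.35 and 11.98 in the same control boars. It was lowest in 3 of the brothers, m_9599, m_9597 and m_9600, and spanned 9.71-fold, the widest range of the 20 probes.

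**Figure D2:**
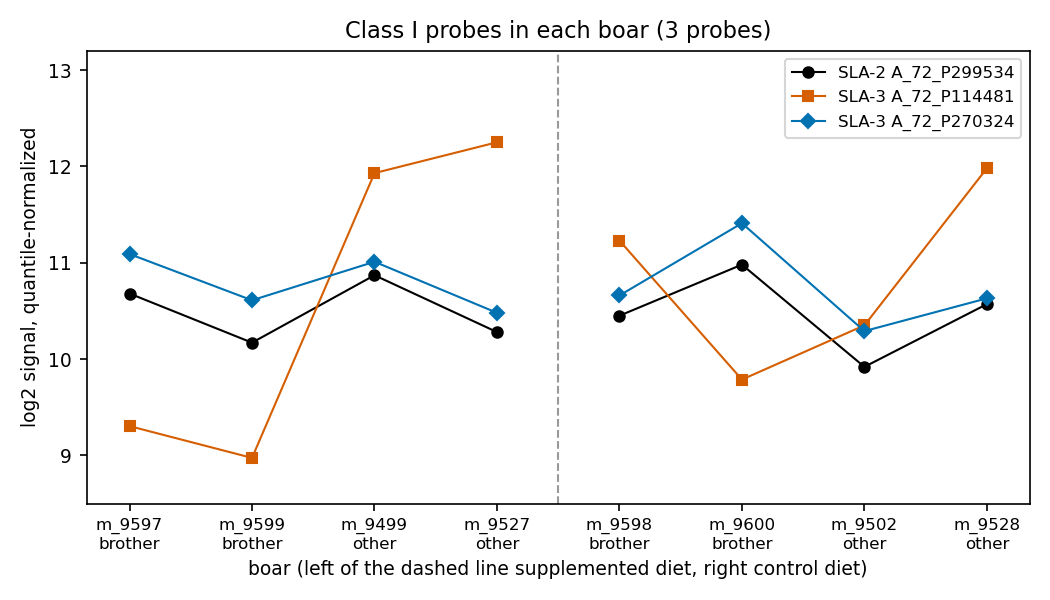
Quantile-normalized log2 signal of the 3 class I probes in each boar, with supplemented boars left and control boars right of the dashed line. The SLA-2 probe and SLA-3 probe A_72_P270324 span 2.09- and 2.17-fold, while SLA-3 probe A_72_P114481 spans 9.71-fold and is low in boars m_9597, m_9599 and m_9600.

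The signal of A_72_P114481 minus that of A_72_P270324 was -1.78, -1.64, 0.92 and 1.77 in supplemented boars m_9597, m_9599, m_9499 and m_9527. In control boars m_9598, m_9600, m_9502 and m_9528 it was 0.57, -1.62, 0.07 and 1.35. Its sign depends on how brightly each probe reads, so that only its change between boars can be compared. It was lowest in brothers m_9597, m_9599 and m_9600. The SD over all 8 boars was 1.29 for A_72_P114481, larger than in 99.6% of present probes, and 0.37 for A_72_P270324. Class I genes of the pig are near-identical in long stretches and highly polymorphic, so that a probe may read another class I gene or read alleles unequally; its part in these values was not tested.

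Between the diets the members' differences were small against the spread between boars. Class I differences ranged from -0.22 to 0.05 on the log2 scale with a median of 0.02, and class II differences from -0.18 to 0.42 with a median of 0.14. The median over all present probes was close to 0. Of the 17 class II differences, 11 were positive (higher on the supplemented diet) and 6 were negative. All 20 of the 95% intervals included 0, and 9 of the 20 also included a 2-fold difference, so that for those probes a change of that size could not be told from none with 4 boars per diet.

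These values turned on boar m_9600. Without it, 10 of 17 class II probes and 0 of 3 class I probes had an unadjusted P under 0.05 by limma, all 10 higher on the supplemented diet, where 3.28% of all present probes passed and 1.96% passed with a higher supplemented mean. The 10 were 3 SLA-DRA, 4 SLA-DRB1 and 1 each of SLA-DQA1, SLA-DQB1 and CD74, and SLA-DMA had 0 of 2. None passed after adjustment over all present probes, where the lowest adjusted p of a member was 0.792. The median class II difference became 0.47 on the log2 scale, all 17 differences were positive, and the boars of the diets no longer overlapped in 7 of 17 probes, against 4.03% of all present probes. Boar m_9600 was the highest control in each of these 17 probes and was singled out after its values were seen, so that leaving it out could only move the differences toward the supplemented diet.

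**Figure D3:**
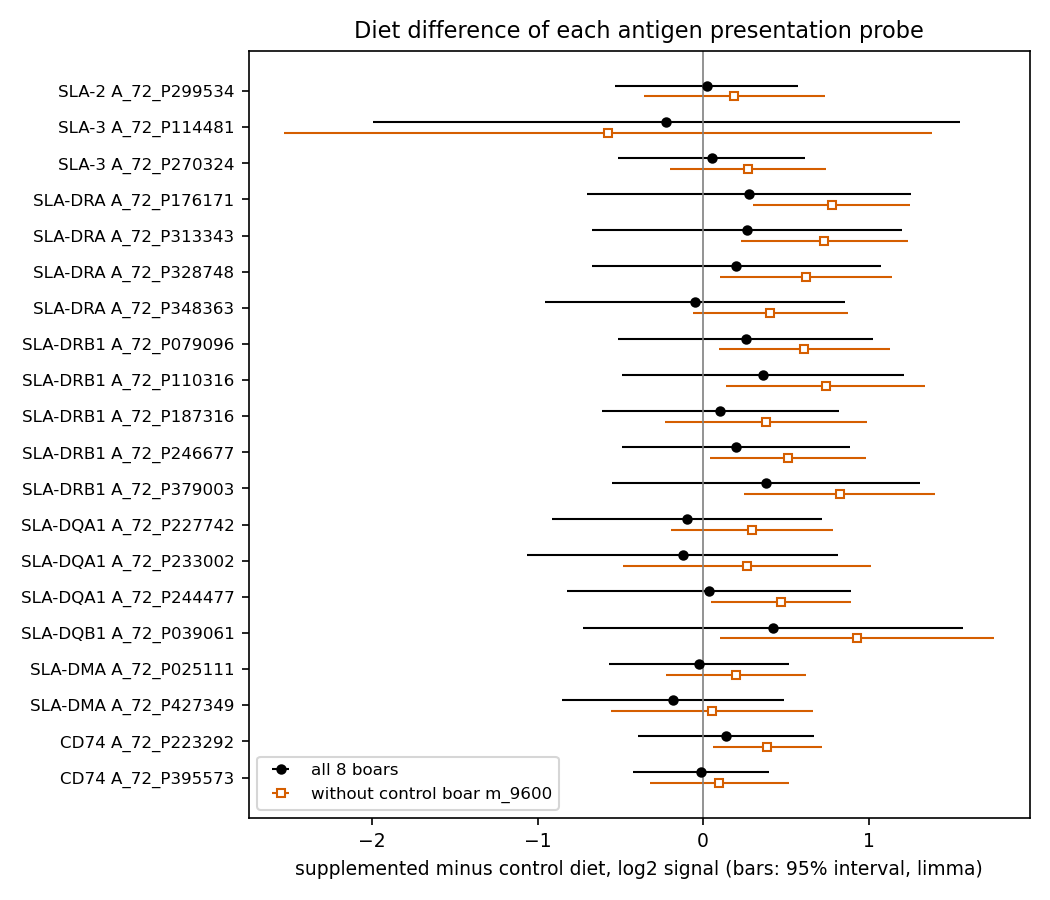
Supplemented minus control diet for each of the 20 probes on the log2 scale, with 95% intervals from limma, for all 8 boars (filled circles) and without control boar m_9600 (open squares). All 20 intervals from 8 boars include 0; without boar m_9600 all 17 class II differences are positive.

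For SLA-DRA probe A_72_P176171 the difference without boar m_9600 was 0.78 on the log2 scale, with a standard error of 0.21. Its unadjusted P was 0.00529 and its adjusted p 0.792 by limma. SLA-DRB1 probe A_72_P379003 differed by 0.83, with a standard error of 0.25 and the same adjusted p. SLA-DQB1 had a difference of 0.93 and overlapping diets, since supplemented boar m_9527 stayed below control boar m_9502. In SLA-2 the difference without boar m_9600 was 0.19, with an unadjusted P of 0.453.

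Class II probes spread more between boars of the same diet than most probes did. The SD within a diet had a median of 0.642 on the log2 scale over the 17 class II probes, 0.394 over the 3 class I probes and 0.296 over all present probes. In 16 of 17 class II probes it was above that median of all probes, and the class II probes lay between percentiles 37.6 and 98.2 of all present probes. CD74 probe A_72_P395573 was the exception, with an SD of 0.249. Without boar m_9600 the class II median was 0.298, beside 0.294 for all present probes, and 9 of 17 class II probes were above it. Of the class I probes, A_72_P114481 kept an SD of 1.42 without boar m_9600.

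**Figure D4:**
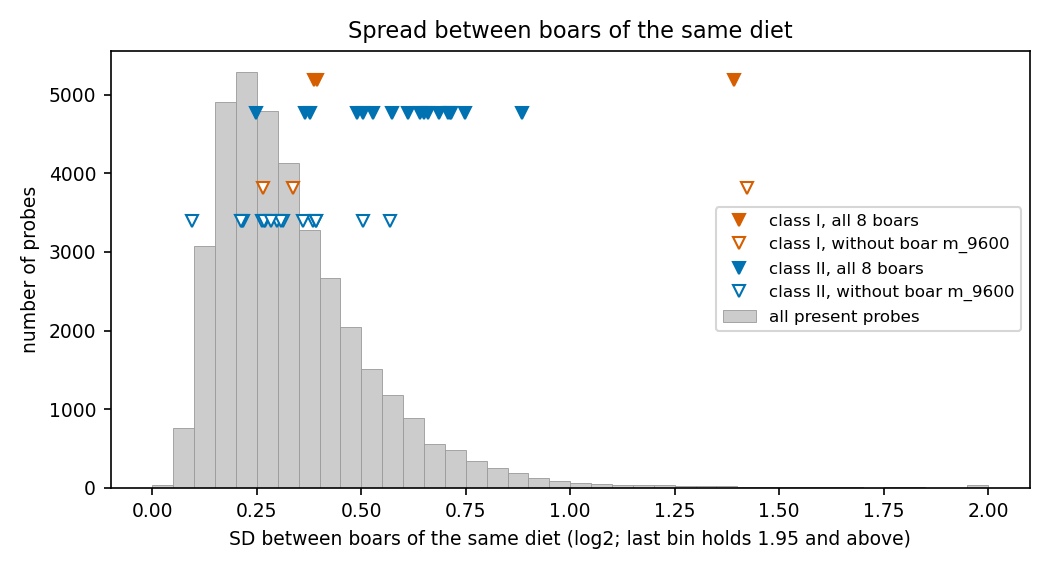
SD between boars of the same diet on the log2 scale, as a histogram over all present probes (grey; y axis, number of probes), with triangles for each class I and class II probe at heights chosen only to separate them. Filled triangles use all 8 boars and open ones leave out boar m_9600; the class II probes move from a median of 0.642 to 0.298.

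The litter of 4 brothers was compared with the other 4 boars, with diet in the model. An unadjusted P under 0.05 was found for 1 of 20 members, against 8.11% of all present probes, and none passed after adjustment. Without boar m_9600 the count was 5 of 20, against 5.92% of all present probes, again with none after adjustment. The member found with all boars was SLA-3 probe A_72_P114481, which was lower in the brothers by 1.80 on the log2 scale (standard error 0.57). Its unadjusted P was 0.0128 and its adjusted p 0.573 by limma. The diet difference of this probe was -1.37 within the brothers and 0.92 within the other boars, and the difference between the litters in the diet effect was -2.30 with an unadjusted P of 0.0327 and an adjusted p of 1. It was the only member of 20 with an unadjusted P under 0.05 in this interaction, against 2% of all present probes.

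In all 20 members the diet difference was lower within the brothers than within the other boars, and in 17 of 20 it was negative in the brothers and positive in the others, against 18.9% of all present probes. For SLA-DRA probe A_72_P176171 it was -0.23 in the brothers and 0.78 in the other boars. Boars m_9600 and m_9598, the highest and the lowest of most class II probes, were both control brothers. The mean of the control brothers thus rested on values far apart, and leaving out either boar leaves the other alone. Boar m_9600 exceeded boar m_9598 in all 17 class II probes. Leaving out boar m_9598 could therefore only lower their interaction, and leaving out boar m_9600 could only raise it. Both boars were singled out after their values were seen. The fits without them therefore cannot decide whether the diet effect differed between the litters. Without boar m_9600 the interaction was positive in 15 of 17 class II probes, and without boar m_9598 it passed an unadjusted P of 0.05 in 13 of 20 members, against 2.34% of all present probes, with none after adjustment.

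The other genes of the antigen presentation pathway had no probe that passed the test for diet either. Of a list of 61 genes, 25 had a present probe (37 probes), and 0 of 37 passed an unadjusted P of 0.05 for diet and 0 of 37 for litter, against 1.86% and 8.11% of all present probes. The genes of class I peptide supply and loading were measured by 12 probes, 7 of which were highest in boar m_9600, against 9.56% of all present probes. Among these, PSMB8, a catalytic subunit of the immunoproteasome, read 8.71 in boar m_9600 and 7.63 to 8.34 in the other boars. PSMB9, another such subunit, was highest in boar m_9499 (10.51) and next in boar m_9600 (10.41). The 3 probes of PSMB10, the third such subunit, were highest in 3 different boars, m_9527, m_9600 and m_9499, and had diet differences of 0.13 to 0.49.

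PSME1 and PSME2 encode the proteasome activator PA28. PSME1 (A_72_P035626) read 12.40 in boar m_9600, and PSME2 (A_72_P146981) read 12.03 there against 10.63 to 11.72 in the other boars. The other PSME2 probe (A_72_P337518) was nearly tied, at 8.42 in boar m_9600 and 8.41 in boar m_9499. TAP1, which encodes a subunit of the peptide transporter, was dim: probe A_72_P223837 read 7.11 in boar m_9600 and 5.80 to 6.56 in the others, and probe A_72_P172206 was well above background on only 2 of 8 arrays. LNPEP, an aminopeptidase that trims peptides in endosomes, ranged from 7.52 to 8.18. PSME3, which encodes the nuclear activator PA28 gamma, was not in this order, with 12.89 in boar m_9600 and 13.71 in boar m_9528. It was the 1 of 37 probes with an unadjusted P under 0.05 in the interaction with litter, against 2% of all present probes. Its adjusted p was 1 by limma.

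Class II loading and costimulation genes had 9 present probes, of which 5 were highest in boar m_9600, against 9.56% of all present probes. They were both probes of CTSB and of CTSH, lysosomal proteases, and the probe of CD86, a costimulatory ligand. The CD86 probe was dim, well above background on only 5 of 8 arrays. Both probes of CD80, another costimulatory ligand, were highest in other boars, m_9502 (6.32) and m_9598 (7.21). SLA-DMB, the partner chain of SLA-DMA, read 10.07 in boar m_9600, below boars m_9502 (10.19) and m_9499 (10.35). Of the other class I genes, SLA-8 probe A_72_P070231 had the smallest unadjusted P of the pathway list for diet, 0.070 by limma, with a difference of 0.44. Without boar m_9600 it was the only pathway probe of 37 under 0.05, against 3.28% of all present probes.

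Markers of macrophages were also high in boar m_9600. Of the macrophage list, 5 of 10 genes had a probe, and 8 of their 9 probes were present. Of these 8, 4 were highest in boar m_9600, against 9.56% of all present probes, and 4 in supplemented boar m_9527. The summed signal of the 9 probes was 4668 in boar m_9600, 1825 to 2283 in the other control boars and 2613 to 4565 in the supplemented boars. AIF1 (A_72_P394883), a macrophage protein, read 10.43 in boar m_9600 and 10.34 in boar m_9527, and 8.19 to 9.62 in the other boars. LYZ, the gene of lysozyme, did not follow AIF1 in boar m_9527, where it was lowest of the 8 at 7.59, with 8.13 to 9.18 in the other boars and the highest value in boar m_9600. Its diet difference was -0.50. In boar m_9527 the class II median was -0.07 and the macrophage median 0.46. Without boar m_9600, 4 of 8 macrophage probes had an unadjusted P under 0.05 for diet (limma), all higher on the supplemented diet. Of all present probes 3.28% passed and 1.96% passed with a higher supplemented mean, and 10 of 17 class II probes passed. Boar m_9600 was left out after its values were seen, which moves the differences of probes high in it toward the supplemented diet. The part of macrophage content in the class II values was not tested.

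**Figure D5:**
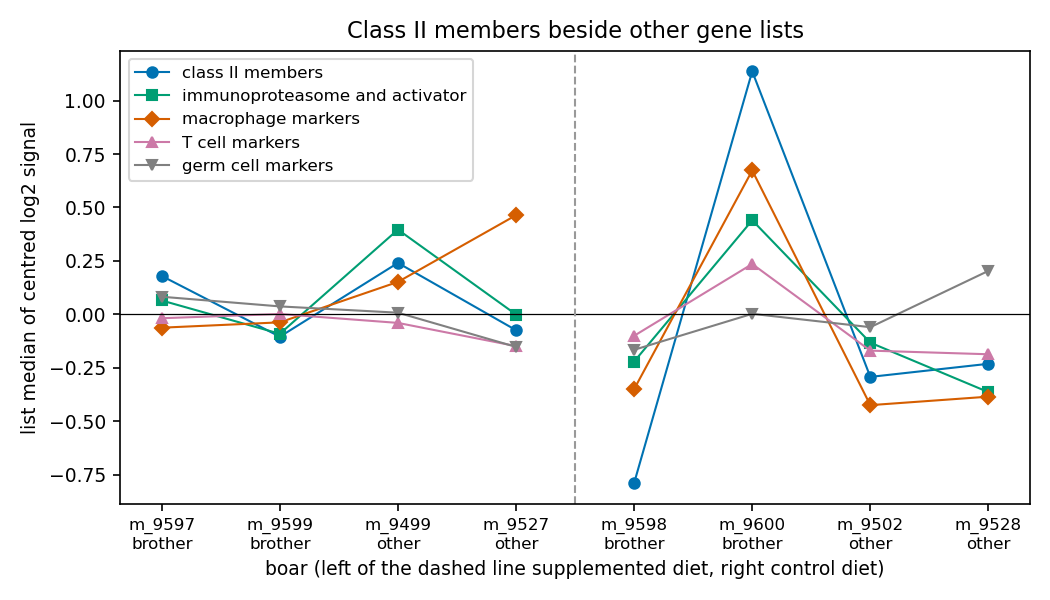
Median of the centred log2 signal over the probes of each list in each boar, for the class II members, the immunoproteasome and its activator, and markers of macrophages, T cells and germ cells. Class II and macrophage markers are both highest in boar m_9600 (1.14 and 0.67), while in boar m_9527 the macrophage markers are at 0.46 and class II at -0.07.

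Of the T cell list, CD3D and CD2 were not present, and the 5 present probes of CD3E, CD3G, CD4 and CD8A were dim, with means over the boars from 5.27 to 5.84. The 2 probes of CD247, the CD3 zeta chain, were bright, with means of 10.60 and 12.47, and neither was highest in boar m_9600. Of 7 present T cell probes 3 were highest in boar m_9600, against 9.56% of all present probes. Among them was CD3G probe A_72_P088461 at 6.36 there and 4.91 to 5.78 elsewhere, well above background on only 4 of 8 arrays. The other CD3G probe (A_72_P354513) was highest in boar m_9502 (5.92) and read 5.105 in boar m_9600. CD247 made up 94.1% to 96.4% of the list's summed signal, and without it the sum was 482 in boar m_9600, 355 to 382 in the other control boars and 367 to 401 in the supplemented boars. The list had 11 probes, of which 7 were present, and both sums include the probes that were not present. The dendritic cell list had 1 present probe, for XCR1, which was not highest in boar m_9600. Endothelial markers had 4 present probes, of which 2 were highest in boar m_9600, against 9.56% of all present probes. These were CDH5 (A_72_P077856) at 11.00, with 9.86 to 10.49 elsewhere, and PECAM1 (A_72_P077376) at 8.67, with 7.99 to 8.44 elsewhere. The other PECAM1 probe (A_72_P218027), which was brighter, was highest in boar m_9527 (11.96) and read 11.05 in boar m_9600. The other CDH5 probe (A_72_P310398) was highest in boar m_9528 (5.57), with 5.51 in boar m_9600. The endothelial median was 0.35 in boar m_9600, the highest of the 8. Its part in the class II values was not tested. Of 8 Sertoli cell probes 1 was highest in boar m_9600. Markers of germ cells and Leydig cells were not highest in boar m_9600 in any of their 4 and 10 probes. The list of general leukocyte markers had no probe under a gene name.

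Among 2115 other named genes with a present probe, the 5 whose values over the 8 boars were most like the mean class II profile included PSMB10 (r = 0.93), the receptor gene CCRL2 (0.91), the enamel protein gene AMBN (0.90) and PSMB8 (0.90), by Pearson's correlation. A gene was ranked by its present probe with the highest r. PSMB10 had 3 present probes, and its r is that of A_72_P024281. These values share the 8 arrays and lean on boar m_9600. Over the 7 boars without it, PSMB10 again ranked 1 (r = 0.97), whereas PSMB8, CCRL2 and AMBN ranked 79, 131 and 145. The mean class I profile follows mostly SLA-3 probe A_72_P114481, with which it had an r of 0.86, beside 0.57 for SLA-2 and 0.22 for A_72_P270324. Genes most like it were TKT (r = 0.91), an enzyme of the pentose phosphate pathway, and SCD (0.91), a fatty acid desaturase. Next came UQCR10 (0.90), a subunit of respiratory complex III, the death ligand gene TNFSF10 (0.88) and the kinase gene JAK1 (0.87). The r of JAK1 is that of A_72_P088086, which was highest in boar m_9528 (14.42). The other JAK1 probe, A_72_P304819, was lowest in that boar (13.83).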

How the data were processed

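The authors deposited each array's scanner output, in which the intensity of every spot had been read by Feature Extraction (version 10.5.1.1 in the file headers; the study's methods name another version) and was not normalized between arrays. The authors also deposited log2 values for 35258 probes, which matched the values computed here within 0.056. From the scanner files, gMedianSignal of non-control spots was set on the log2 scale, quantile-normalized without background subtraction, and averaged over spots of a probe. Fold changes of dim probes are therefore understated. A probe was present in a boar above a signal of 25 and well above background, and 36982 present probes were tested.

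Diets were compared with limma 3.58.1 (lmFit, eBayes, two-sided) in R 4.3.3, with Benjamini-Hochberg adjustment over all present probes. Litter, and its interaction with diet, were added as terms. Each boar is a biological replicate, and the number of arrays, 4 per diet, limits the precision. Code was tested on simulated data. Of 3239 probes with a RefSeq accession, 2628 matched the pig RefSeq gene table. The brightest probe of each gene, and any with an unadjusted P under 0.05, was described boar by boar. Likeness is Pearson's r over the boars. The members, gene lists and tests were chosen with earlier results of these data known. Sperm samples were not used here, and some genes of the lists are not reported here. Alternatives were another signal column, scaling, background correction, filters, tests, array weights and litter as a block. Others were the brothers alone, the other boars alone, and leaving out each boar.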

Additional observations from a re-analysis of the deposited data

Results flagged for a closer look

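Among 44 sets of 4 boars of a diet, Dixon's test singled out the highest boar in 3, in each case control boar m_9600. Chance alone gives about 1 in 20, and 3 of 44 is near that share. The sets share the 8 arrays, so these 3 are not independent of each other. SLA-DRA probe A_72_P313343 read 11.61 in boar m_9600 and 9.56 to 9.89 in the other control boars. SLA-DQA1 probe A_72_P244477 read 12.77 there and 10.91 to 11.11 in the others. CD74 probe A_72_P223292 read 8.16 there and 7.12 to 7.25 in the others. The effect of diet on SLA-3 probe A_72_P114481 differed between the brothers and the other boars by -2.30 on the log2 scale, with an unadjusted P of 0.0327 and an adjusted p of 1 by limma.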

How the results depend on the processing

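No member passed adjustment for diet, litter or their interaction under any alternative that was run, leaving out each boar included. With array weights 5830 of all present probes had an unadjusted P under 0.05 for diet and 1 passed adjustment; in the 4 brothers alone these counts were 2381 and 3, and in the other 4 boars alone 359 passed the unadjusted threshold. Leaving out each boar gave 339 (without boar m_9528) to 6155 (without boar m_9502), with 369 without m_9598, 438 without m_9527 and 1213 without m_9600, and 0 to 1 after adjustment, the 1 without m_9502. Of the 20 members, 1 passed an unadjusted P of 0.05 for diet in the brothers alone. When a boar was left out 0 to 10 passed, the 10 without boar m_9600, where 3.28% of all present probes passed. For litter the count was 0 with the ordinary equal-variance test and 1 to 5 of 20 when a boar was left out. It was 2 without boar m_9499, 2 without boar m_9598 and 5 without boar m_9600. The shares of all present probes in these fits were 9.06%, 5.31% and 5.92%. For the interaction it was 0 with the ordinary test and 0 to 13 when a boar was left out, 13 without boar m_9598 and 0 without m_9597, m_9599, m_9499, m_9502 or m_9527. Leaving out a boar leaves 1 boar of its diet in its litter, so that the interaction counts without a boar cannot decide whether the diet effect differed. The class II SD was 0.306 in the other 4 boars alone and 0.298 (without boar m_9600) to 0.700 when a boar was left out. The causes were not tested.

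Several small diet differences changed sign. With array weights that of SLA-2 was -0.023, of SLA-DMA (A_72_P025111) 0.0073 and of CD74 (A_72_P395573) 0.063, and with the processed signal that of CD74 was 0.023. In the brothers alone SLA-2 was at -0.29, SLA-3 (A_72_P270324) at -0.18, SLA-DRA (A_72_P176171) at -0.23 and SLA-DQA1 (A_72_P244477) at -0.28. In the other 4 boars alone SLA-3 (A_72_P114481) was at 0.92, SLA-DMA at 0.32 and CD74 at 0.14. Leaving out each boar gave -0.17 to 0.19 for SLA-2, -0.77 to 0.32 for SLA-3 (A_72_P114481), -0.10 to 0.27 for SLA-3 (A_72_P270324), -0.15 to 0.47 for SLA-DQA1, -0.16 to 0.20 for SLA-DMA and -0.12 to 0.10 for CD74.

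No paired analysis was possible because the boars' replicate numbers are not in the labels; with litter as a block instead, 726 of all present probes passed the unadjusted threshold for diet.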
